A study of Mus musculus with 8 samples.

Results

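Aspm, Cdk5rap2, Wdr62, Cenpj, Mcph1, Stil, Cep135, Cep152, Cep63 and Cit are mouse genes whose human counterparts cause primary microcephaly, a brain of reduced size, or a related syndrome with a small brain when both copies are mutated. Their RNA was compared between the proliferative wall and the neuronal layer of the embryonic cortex. The 10 genes were chosen by symbol, through the RefSeq accessions of the array probes, and not by their signal. When they were chosen, earlier results of these data were known. The 10 are among 19232 genes tested and are read by 13 of the 39429 gene probes on the array. Of these 19232, 13831 have a gene symbol, and the rest are unmatched array identifiers, each counted as a gene. Shares and medians of all tested genes below include both. Cdk5rap2, Wdr62 and Cep63 have 2 probes each and the other 7 genes have 1. Each of these probes is a single spot on every array.

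The 8 samples are total RNA of ICR mice at embryonic day 16. Of these, 4 are hand-dissected ventricular and subventricular zone (V/SVZ), which holds the dividing progenitors, and 4 are cortical plate (CP), which holds young neurons. No allele, transgene or treatment is recorded for either group, and nothing in the labels ties a sample to an animal or litter of its own. The p-values below therefore rest on sample-to-sample spread that could be purely technical. Each sample was labelled with a single dye on its own Agilent array. Slide 1 carried every V/SVZ array and slide 2 every CP array, so slide and tissue cannot be told apart.

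A centrosome is a pair of centrioles inside a protein matrix that nucleates microtubules. New centrioles are built once per cell cycle beside the old ones, and the pair of centrosomes then forms the poles of the mitotic spindle. Radial glia divide at the ventricular surface, where spindle poles, spindle orientation and the completion of cytokinesis bear on whether a division yields progenitors or neurons. Most of the 10 proteins act at one of these steps. Stil, Cenpj, Cep135, Cep152 and Cep63 serve centriole assembly, Cdk5rap2 the pericentriolar matrix, Aspm and Wdr62 the spindle poles and Cit the final separation of daughter cells, while Mcph1 acts on chromosome condensation and the DNA damage checkpoint.

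The dissection was described by markers, summed per array in units of the array's 75th percentile signal. The direction of the markers also served to choose between conflicting tissue labels, as given below. It is therefore no independent check of those labels. The 9 progenitor markers summed to 215 to 224 in V/SVZ and 10.8 to 12.3 in CP, and all 9 passed the test towards V/SVZ, Eomes with a log2 difference of 8.39. Pax6, the radial glia transcription factor, was called towards V/SVZ on both of its probes. The brighter one was well above background on 0 of 4 CP arrays and at least 105-fold higher in V/SVZ by the processed signal, a bound that does not carry over to another background correction (normexp), which gave 38.6-fold. The other probe had a log2 difference of 3.71. The 6 proliferation markers summed to 78.2 to 87.7 against 9.61 to 9.74, and all 6 were higher in V/SVZ, Ccnb1 by 5.84 and Mki67 by 5.19 on the log2 scale. The 9 neuron markers summed to 49.1 to 53.6 against 317 to 333, and all 9 were higher in CP, with log2 differences of -7.35 for Camk2b, -2.79 for Bcl11b and -1.53 for Tbr1. Normexp gave 7.58 for Eomes. Markers of other cell types were read in the same way. Of 6 microglia markers 5 were higher in V/SVZ, summing to 8.25 to 11.8 against 2.58 to 3.63 (P2ry12 log2 difference 2.39). Of 6 endothelial markers 2 were higher, a share near the 35.0% of all tested genes called towards V/SVZ, with a median log2 difference of 0.06 and sums of 6.85 to 7.59 against 5.76 to 6.40. Kdr differed by 0.32 on its brighter probe and by -0.06, not called, on the other. Of 4 erythroid markers 3 were higher, at 141 to 180 against 106 to 119 (Hba-a1 0.49), and of 6 glial lineage markers 3 were higher, at 1.01 to 1.33 against 0.639 to 0.876 (Aqp4 1.53, and 0.45 after normexp). The part of these cells in the differences below was not tested. In bulk tissue, fewer cells of a type and less RNA per cell cannot be told apart.

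Of the 10 genes, 9 were higher in V/SVZ and 1, Mcph1, was higher in CP, by limma across all genes with each gene read by its brightest tested probe (threshold adjusted p of 0.05). The tissues differ so widely that 79.5% of all tested genes passed this threshold, 35.0% towards V/SVZ and 44.6% towards CP, so a call alone says little about a gene. The sizes of the differences separate the genes further. At least a 2-fold excess in V/SVZ was found for 8 of the 10 genes, against 13.7% of all tested genes, and at least 8-fold for 2 of the 10, Aspm and Stil, against 3.58%. Stil and Cit are among the 8 but were well above background on only 2 of 4 CP arrays. They entered the test through V/SVZ, the tissue where they are high. These counts were also taken, after the data were seen, under the alternative settings. With probes kept only where well above background on all 8 arrays, Stil and Cit were not tested, and 6 of 8 genes reached 2-fold. With the probes of a gene averaged 6 genes reached 2-fold, since Wdr62 and Cep63 did not, and after normexp only Aspm, 1 gene, reached 8-fold. Without CP array 3 Cit passed it too, making 3. The median log2 difference was 1.60 for the 10 genes and -0.09 for all tested genes, whose quartiles were -0.66 and 0.44. Differences of 1.27 to 1.81 were shared by 5 genes, namely Wdr62, Cdk5rap2, Cep152, Cep135 and Cep63. Cit lay above them at 2.81 but among them after normexp, at 1.62 beside 1.71 for Wdr62 and 1.65 for Cdk5rap2, and its CP signal was well above background on only 2 of 4 arrays. Cenpj and Mcph1 lay close to 0.

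Read probe by probe, in the fit to all 23860 tested probes from which the values below are taken, 10 of the 13 probes were higher in V/SVZ, 2 were higher in CP and 1 was not called. Among all tested probes 35.2% were called towards V/SVZ, 44.4% towards CP and 79.7% in either direction. The 4 V/SVZ arrays lay wholly above the 4 CP arrays for 9 of the 13 probes, against 33.8% of all tested probes. They lay wholly below for 2, against 41.7%, and the tissues overlapped for the remaining 2. All 13 probes were well above background on every V/SVZ array and 10 were so on all 8 arrays.

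**Figure D1:**
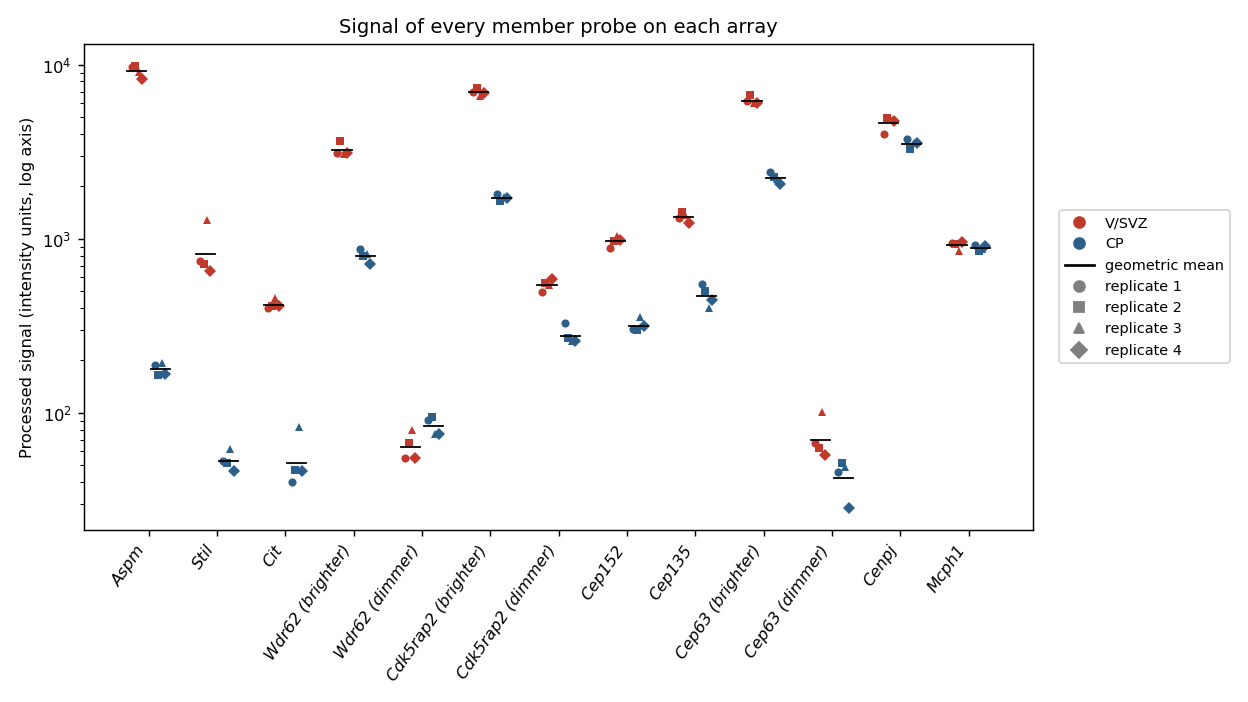
Processed signal of each of the 13 probes on each array, in intensity units before scaling between arrays and on a log axis, with V/SVZ in red, CP in blue, 1 marker shape per replicate number and a bar at the geometric mean of 4 arrays. Aspm shows the widest gap, between 8306 and 192, while Mcph1 lies nearly level and the unscaled Cenpj signal is slightly higher in V/SVZ.

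Aspm binds the minus ends of microtubules at the spindle poles and is the gene most often mutated in human primary microcephaly. Its signal on V/SVZ arrays 1 to 4 was 9681, 9805, 9053 and 8306 intensity units, and on CP arrays 1 to 4 it was 188, 164, 192 and 166. Every V/SVZ array was far above every CP array, and the CP signal was still well above background on all 4 arrays. After scaling, the log2 difference was 5.49 ± 0.07 (SE, n = 4 per tissue), a 44.9-fold excess in V/SVZ (adjusted p = 4.63e-10). Among 12544 genes with a symbol and well above background on all 8 arrays, the 3 whose centred log2 profile lay closest to that of Aspm were Tuba1c, an alpha-tubulin, Bub1, a spindle checkpoint kinase, and Ccna2, the S-phase and mitotic cyclin A. Their root mean square distances from Aspm over the 8 arrays were 0.0860, 0.0869 and 0.0898 log2 units. With 2 tissues this likeness is mostly a like size of tissue difference: the log2 difference was 5.45 for Tuba1c, 5.44 for Bub1 and 5.63 for Ccna2.

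Wdr62, the other spindle pole protein, also serves as a scaffold for JNK signalling. Its brighter probe read 3119, 3615, 3080 and 3086 in V/SVZ and 867, 797, 814 and 714 in CP, with no overlap. The log2 difference was 1.81 ± 0.06 (SE), or 3.50-fold (adjusted p = 4.26e-08). Its dimmer probe went the other way, at 55, 67, 80 and 55 in V/SVZ and 91, 94, 76 and 76 in CP. Those unscaled values overlap through V/SVZ array 3, and after scaling they do not. The scaled difference was -0.61 ± 0.12 (SE), 1.53-fold higher in CP (adjusted p = 0.00218). Averaging the probes gave 0.60, a 1.51-fold excess in V/SVZ, so the size given for Wdr62 rests on the choice of probe.

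Sequence of the RefSeq promoter entries is shown for the genes in which a short promoter motif recurs. CCAAT boxes, bound by NF-Y, are frequent in promoters of genes expressed in the G2 and M phases, together with the cell cycle genes homology region (CHR), and E2F sites are frequent in promoters of genes of the G1 to S transition. RefSeq promoter entries (build GRCm38.p6) were matched for 9 of the 10 genes, all but Mcph1. Aspm, Stil, Wdr62 and Cep152 each have 3 CCAAT boxes on either strand. The 250 bases before the transcript start that each entry uses are printed 5′ to 3′ along the gene, with CCAAT or its reverse complement ATTGG in capitals. That start can lie inside the full gene span of the RefSeq gene table, by 585 bases for Aspm, 1498 for Wdr62, 61 for Cep152 and 10 for Stil, so the bases printed for Aspm and Wdr62 lie wholly within the span.
Aspm, chr1:139454523-139454772, plus strand: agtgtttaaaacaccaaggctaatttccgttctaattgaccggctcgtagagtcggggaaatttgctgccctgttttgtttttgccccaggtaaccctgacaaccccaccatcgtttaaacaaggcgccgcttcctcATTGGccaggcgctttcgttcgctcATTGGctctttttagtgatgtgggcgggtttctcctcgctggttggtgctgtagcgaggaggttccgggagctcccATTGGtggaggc
Stil, chr4:114999868-115000117, plus strand: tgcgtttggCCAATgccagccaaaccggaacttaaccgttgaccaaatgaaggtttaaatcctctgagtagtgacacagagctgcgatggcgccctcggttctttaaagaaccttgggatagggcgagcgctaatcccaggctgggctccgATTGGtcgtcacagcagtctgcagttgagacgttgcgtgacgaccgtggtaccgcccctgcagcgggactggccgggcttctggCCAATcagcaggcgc
Wdr62, chr7:30280411-30280660, minus strand: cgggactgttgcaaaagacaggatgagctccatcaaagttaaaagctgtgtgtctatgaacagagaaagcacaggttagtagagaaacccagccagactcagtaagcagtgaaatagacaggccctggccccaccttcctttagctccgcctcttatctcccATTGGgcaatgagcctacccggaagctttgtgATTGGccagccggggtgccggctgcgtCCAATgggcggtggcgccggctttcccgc
Cep152, chr2:125625114-125625363, minus strand: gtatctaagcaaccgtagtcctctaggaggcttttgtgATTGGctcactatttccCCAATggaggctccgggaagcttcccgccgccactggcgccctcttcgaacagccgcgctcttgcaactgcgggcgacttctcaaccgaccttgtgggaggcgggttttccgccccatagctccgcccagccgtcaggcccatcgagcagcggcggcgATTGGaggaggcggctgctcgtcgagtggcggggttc

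The Aspm boxes begin 113, 88 and 12 bases before the start of the entry, those of Stil 241, 99 and 15, those of Wdr62 88, 56 and 29, and those of Cep152 212, 195 and 37. Wdr62 has a second, overlapping entry with the same boxes. Over the 300-base windows that reach from 250 bases before to 50 after that start, at least 1 CCAAT box was present in 5 of the 9 genes, Cep135 being the other, and in 37.4% of all 32851 RefSeq promoter entries. As many as 3 were present in 4 of the 9 and in 3.37% of all entries. The CHR was searched as TTTGAA or TTCGAA on both strands and was found in 3 genes, Aspm, Cep152 and Cdk5rap2, against 19.2% of entries. The E2F site was searched as TTCCCGC or TTCGCGC or TTGGCGC or TTGCCGC on both strands and was found in 4, Cep152, Stil, Wdr62 and Cep63, against 9.57%. None of the searched strings overlaps another in these windows. In Aspm the CHR begins at base 7 after the start. Cit and Cenpj had no match to any of the 3 motifs. A match is a run of letters and not a measured binding site.

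**Figure D2:**
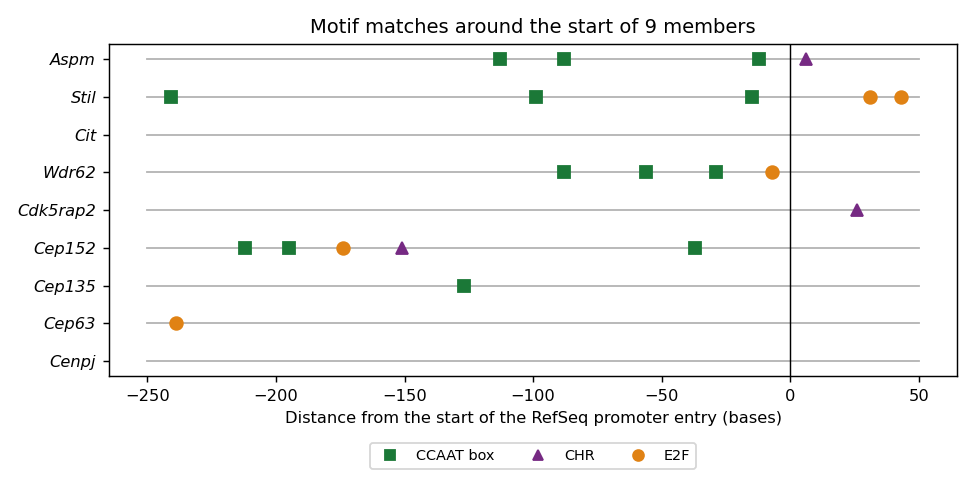
Matches to the CCAAT box (squares), CHR (triangles) and E2F site (circles) along the promoter window of 9 genes, with the distance from the start of the RefSeq promoter entry in bases on the horizontal axis and genes ordered by their tissue difference. Aspm, Stil, Wdr62 and Cep152 carry 3 CCAAT boxes each, while Cit and Cenpj carry no match.

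Among the centriole assembly genes the differences ran from 13.4-fold for Stil to 1.14-fold for Cenpj. Stil, which with the kinase Plk4 and the cartwheel protein Sass6 starts the new centriole, read 745, 713, 1277 and 650 in V/SVZ and 53, 51, 62 and 46 in CP. The V/SVZ arrays were all above the CP arrays, with V/SVZ array 3 highest. In CP only arrays 2 and 3 were well above background. The log2 difference was 3.74 ± 0.20 (SE) (adjusted p = 6.54e-07). It was 3.54, or 11.6-fold, without V/SVZ array 3, and 6.20-fold after normexp, so the fold for this gene depends on how the dim CP signal is treated.

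Cep152, which recruits Plk4 to the mother centriole, read 879, 972, 1040 and 980 in V/SVZ and 303, 299, 352 and 314 in CP. The tissues were well apart, with a log2 difference of 1.40 ± 0.07 (SE), or 2.64-fold (adjusted p = 3.09e-07). Cep63, the partner of Cep152 at the mother centriole, read 6162, 6647, 5997 and 6037 against 2401, 2269, 2214 and 2068 on its brighter probe. It differed by 1.27 ± 0.05 (SE), or 2.40-fold (adjusted p = 6.33e-08), again with no overlap. Its dimmer probe read 67, 62, 101 and 57 against 46, 51, 49 and 28, and its scaled values overlap. The log2 difference of 0.51 ± 0.23 (SE) was not called (adjusted p = 0.0688), although it was under quantile normalization (0.0182) and median scaling (0.0192). After normexp the difference was 0.12, again not called. In CP that probe was well above background only on arrays 2 and 3.

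Cep135 joins the cartwheel to the centriole wall. It read 1322, 1430, 1371 and 1238 in V/SVZ and 549, 499, 398 and 444 in CP, a log2 difference of 1.30 ± 0.09 (SE), or 2.47-fold (adjusted p = 2.87e-06). The tissues did not overlap. Cenpj, which sets centriole length, read 3992, 4904, 4907 and 4733 against 3730, 3259, 3553 and 3549. Both tissues had a high signal, and after scaling V/SVZ array 1 lay below the highest CP array. The log2 difference of 0.18 ± 0.06 (SE) passed the threshold (adjusted p = 0.0222). The call was lost under spike-in scaling (adjusted p = 0.182), under normexp (0.241) and when V/SVZ array 2, 3 or 4 or CP array 2 was left out (0.0533 to 0.0597). The spike-in RNAs themselves differed between the tissues by up to 0.159.

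Cdk5rap2, a scaffold of the pericentriolar matrix that holds gamma-tubulin complexes, was brighter on one of its probes, at 6998, 7382, 6619 and 6849 in V/SVZ and 1796, 1647, 1741 and 1712 in CP. This probe differed by 1.81 ± 0.05 (SE), or 3.49-fold (adjusted p = 7.72e-09). The dimmer probe read 494, 557, 542 and 589 against 328, 268, 258 and 257 and differed by 0.77 ± 0.07 (SE), or 1.70-fold (adjusted p = 2.23e-05). Neither probe overlapped between the tissues, and both were higher in V/SVZ.

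Cit encodes citron kinase, which acts at the cleavage furrow and midbody, and also a shorter neuronal form without the kinase domain. The position of its probe within the gene was not examined, so the forms are not told apart here. It read 397, 410, 456 and 410 in V/SVZ and 40, 47, 83 and 46 in CP. CP array 3 was the highest CP array and still far below V/SVZ, and only CP arrays 2 and 3 were well above background. The log2 difference was 2.81 ± 0.22 (SE), or 7.01-fold (adjusted p = 5.62e-06). It was 8.21-fold without CP array 3 and 3.07-fold after normexp.

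Mcph1, also called microcephalin, delays chromosome condensation until mitosis and takes part in the DNA damage response. It read 941, 933, 855 and 955 in V/SVZ and 923, 853, 873 and 909 in CP before scaling, which overlap. After scaling the difference was -0.16 ± 0.06 (SE), 1.12-fold higher in CP (adjusted p = 0.0307), with a gap of 0.03 between the tissues. Its size is no larger than the largest spike-in difference of 0.159, which lay in the opposite direction, towards V/SVZ. The call was kept under spike-in scaling (-0.23, adjusted p = 0.00421) and normexp (-0.19, adjusted p = 0.0170). The call was lost under quantile normalization (adjusted p = 0.0824), median scaling (0.538) and no filter (0.0586), and when V/SVZ array 2 or CP array 1, 3 or 4 was left out (0.0502 to 0.0819).

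**Figure D3:**
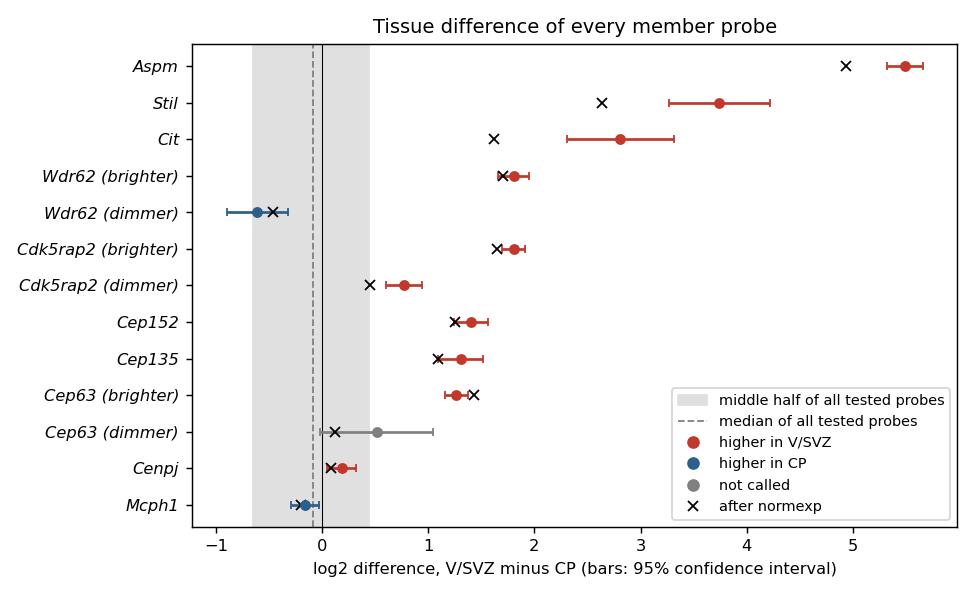
Log2 difference between V/SVZ and CP for each of the 13 probes, with bars for the 95% confidence interval, a cross for the value after normexp and a grey band for the quartile range of all tested probes. Aspm, Stil and Cit lie furthest to the right, Mcph1 and the dimmer Wdr62 probe lie left of 0, and normexp moves Stil and Cit furthest towards 0.

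The genes with a pair of probes allow the size of the difference to be compared within a gene. The tissue difference of the brighter probe minus that of the dimmer probe was 2.42 for Wdr62 and 1.04 for Cdk5rap2 on the log2 scale. Both gave p = 0.0286 in a two-sided exact permutation test over the 8 arrays, the smallest its 70 splits allow, and 0.0429 after Benjamini-Hochberg adjustment over the 3 pairs. For Cep63 it was 0.75, with an exact permutation p of 0.0571, also 0.0571 after adjustment. In each pair the brighter probe gave the larger excess in V/SVZ. On the 4 probes with a mean scaled log2 signal below -4 in CP, namely Stil, Cit and the dimmer probes of Wdr62 and Cep63, V/SVZ array 3 was the highest V/SVZ array each time. That feature was chosen after the values were seen.

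**Figure D4:**
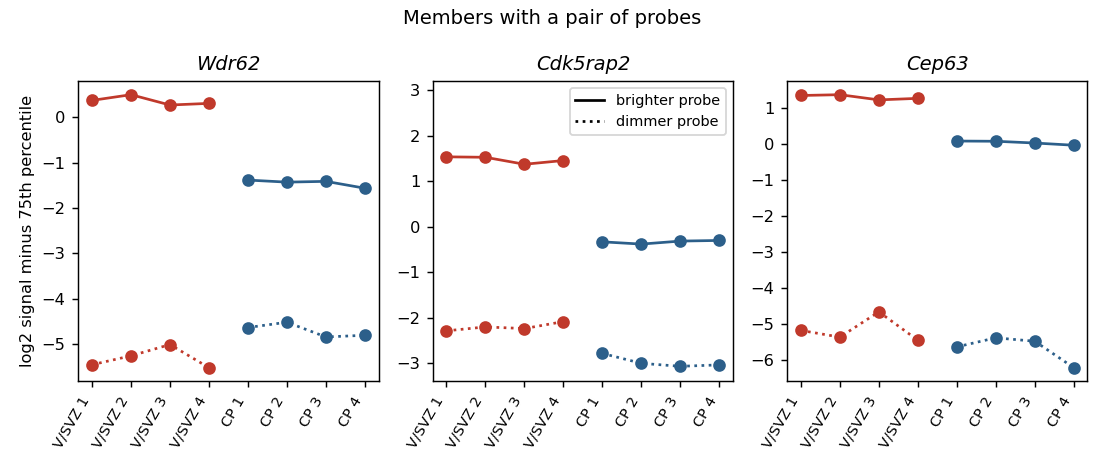
Log2 signal minus the 75th percentile of the array for both probes of Wdr62, Cdk5rap2 and Cep63 on the 8 arrays, with V/SVZ in red, CP in blue, solid lines for the brighter and dotted lines for the dimmer probe. For Wdr62 the brighter probe is higher in V/SVZ and the dimmer one higher in CP.

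Other genes of the same processes were taken from 7 lists. Of 160 distinct genes listed, 158 were tested, of which 109 were higher in V/SVZ, 37 were higher in CP and 12 were not called. Over all tested genes 35.0% were called towards V/SVZ and 44.6% towards CP. The related genes had a median log2 difference of 0.60 beside -0.09 for all genes. Genes of cytokinesis and of the checkpoint and condensin list had the highest medians. In the cytokinesis list 19 of 23 were higher in V/SVZ and 3 in CP, with a median of 2.69. The midzone microtubule bundler Prc1 differed by 5.60 and the furrow regulator Ect2 by 5.38 (4.78 after normexp), while the non-muscle myosin heavy chain Myh10 went the other way at -0.66. In the checkpoint and condensin list 20 of 23 were higher in V/SVZ and 2 in CP, with a median of 1.99. There the condensin subunit Ncaph differed by 4.66, the mitotic inhibitor kinase Wee1 by 3.68 and the DNA damage protein Trp53bp1 by -0.62.

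Centriole and centrosome structure genes differed less in the median. In the centriole assembly list 18 of 26 were higher in V/SVZ and 6 in CP, with a median of 0.52. Trim37, a ubiquitin ligase that limits centrosome protein assemblies, was 4.49-fold higher in CP, and the centriole wall protein Poc1a was 3.43-fold higher in V/SVZ. Plk4 and Sass6, the partners of Stil, were higher in V/SVZ by 3.54 and 0.70 on the log2 scale and were named for that partnership. Plk4 was well above background on 0 of 4 CP arrays. Its 3.54 therefore rests on a CP signal not clear of background, and no bound is given for it here. In the list of the pericentriolar material 21 of 30 were higher in V/SVZ and 5 in CP, with a median of 0.39. Plk1, the mitotic kinase that matures the centrosome, differed by 4.66. Nin encodes ninein, which anchors microtubules at the mother centriole, and lay far below the rest of its list at -4.80 ± 0.07 (SE), a 27.8-fold excess in CP. Its 3 tested probes ran from -4.80 to -2.38, all called towards CP, and averaging them gave -3.78. Tubg2 of the same list was at -2.84, so the place of Nin below the rest depends on the probe.

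In the list of appendages, linker and satellites 15 of 24 were higher in V/SVZ and 7 in CP, with a median of 0.34. It was led by the kinase Nek2, which dissolves the centrosome linker, at 4.85 (3.58 after normexp), and the mother centriole protein Cntrl at 2.21, with the appendage protein Cep170 at -0.99. In the list of spindle poles and orientation 11 of 21 were higher in V/SVZ, with a median of 0.75. The CP excess of 9 of its genes is a share near the 44.6% of all genes. The spindle assembly factor Tpx2 differed by 5.34, or 4.55 as the mean of its probes, and the JNK kinase Mapk8 by -1.66. The 3 tested Mapk8 probes ran from -1.66 to -0.92, all called towards CP. Of 26 further genes mutated in human primary or related microcephaly, 18 were higher in V/SVZ and 6 in CP, with a median of 0.94. Nde1, a dynein regulator that is also on the spindle list, differed by 5.20, the kinetochore motor Cenpe by 4.68 and Map11 by -0.83.

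**Figure D5:**
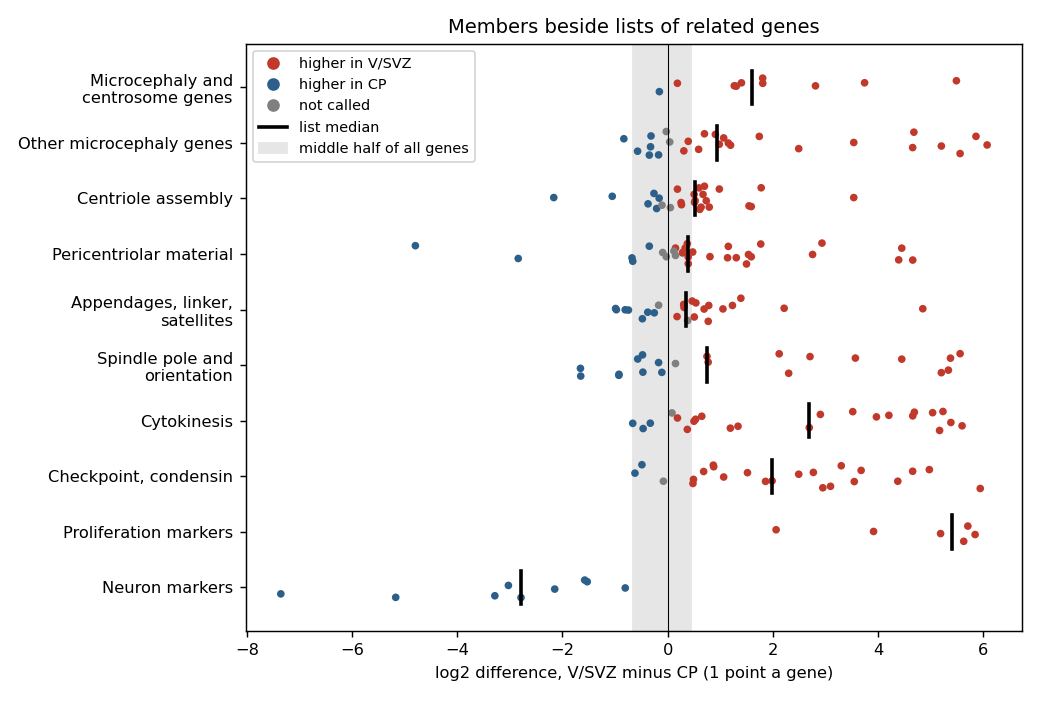
Log2 difference between V/SVZ and CP, 1 point per gene, for the 10 genes, the 7 lists of related genes and 2 marker lists, with a black bar at each median and a grey band for the quartile range of all tested genes. The 10 genes have a median of 1.60, the cytokinesis list 2.69 and the list of the appendages 0.34.

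A table of log2 values that the authors deposited beside the scanner files gives these differences with the opposite sign as its columns are named. The authors' deposited table holds 10 of the 13 probes. In the authors' deposited table Aspm is at -5.49 and Mcph1 at 0.15, and the other 8 are negative. Each of its columns correlated at -0.94 or lower with the scanner array of the same name and at 0.9996 or higher with the array of that number from the opposite tissue. The directions given here follow the titles of the scanner arrays, under which the progenitor markers are higher in V/SVZ and the neuron markers in CP. The markers were used in making this choice and are no separate evidence for it.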

How the data were processed

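RNA was amplified, labelled with Cy3 and hybridised to single-colour arrays, per the labels' protocols. The deposited intensity values are processed signals made by Agilent Feature Extraction 10.7.1.1, background-subtracted, per the file headers, which name build mm9. The authors also deposited a log2 table of 17185 rows. Its log2 base and its centring were inferred by setting its columns against the arrays, and its filter and scaling remain unknown. Column medians ran from -0.03 to 0.02. It entered as an alternative, after its direction was turned. No column of sample values was left unmapped (0 columns).

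Signals were taken as log2 minus the 75th percentile of each array (2113 to 2566 intensity units), leaving out 142 to 258 outlier spots per array. No spot was saturated, and 58.4 to 62.9% of probes were well above background. Testing required a probe to exceed background clearly on all 4 arrays of either tissue and to have 3 or more values in both. V/SVZ minus CP was fitted with limma 3.58.1 (R 4.3.3), adjusting p-values by Benjamini-Hochberg over all 23860 probes, or over 19232 genes read by their brightest tested probe. List, marker and Aspm-like values come from the gene fit. Accessions were matched to a RefSeq table of GRCm38.p6, which named 26761 probes and left 12668 unnamed, so no gene coordinates on the array's build are given. Pax6 has a bound: the V/SVZ mean against, per CP array, the higher of its own signal and the lowest signal well above background. On simulated arrays of 23860 probes, 200 of them changed, the probe fit recovered 80% of log2 changes of 1, and 6.15% of its calls were false. In the measured arrays 79.7% of tested probes were called, so neither share carries over to them.

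The members and lists were chosen with earlier results of these data known. Named genes were all members, from each related list the 2 called genes of largest difference among those clear of background on all 8 arrays, plus the call most opposed to the majority, from each marker list the called gene with the largest difference, the markers Pax6, Eomes, Mki67, Tbr1 and Bcl11b, and the 3 profiles closest to Aspm. Plk4 and Sass6 were added after their values were seen. Alternatives covered scaling, normexp (offset 50), filter, probe choice, replicate block, variance model, array weights, the deposited table and each array left out. Replicate numbers come from the titles. The number of arrays limits the precision.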

Additional observations from a re-analysis of the deposited data

Results flagged for a closer look

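Of 84 sets of 4 arrays examined, 5 held an array that stood apart from the other 3, and chance gives about 1 in 20. All values are scaled log2 signals. Cenpj read 0.72 on V/SVZ array 1, below the 0.92 to 0.94 of the other V/SVZ arrays. Plk1 read 3.47 on V/SVZ array 3, below 3.63 to 3.65. Tpx2 read -3.09 on CP array 3, above the -3.52 to -3.47 of the other CP arrays. Mapk8 read -1.76 on V/SVZ array 1, below -1.46 to -1.40. Tbr1 read 4.00 on V/SVZ array 2, above 3.86 to 3.87.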

How the results depend on the processing

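Each result was recomputed under up to 19 alternatives. Of 209 recomputed counts 206 stayed within 1.5 times the reported count. The others are the number of the 10 genes at least 8-fold higher in V/SVZ, which was recounted after seeing the data. It was 1 and not 2 after normexp, with probes kept only where well above background on all 8 arrays, and in the authors' deposited table with its direction turned. Stil fell short of 8-fold in the first, and was not among the genes tested in the other two. The number of called genes among the 10 ran from 8 to 10 and that of called probes from 10 to 13. Leaving out each array in turn gave 8 to 10 genes and 10 to 12 probes. Of 783 recomputed single values 765 kept their call, 15 lost it, 3 gained it and 0 changed direction. The lost calls were those of Cenpj, Mcph1 and Kdr, the last under normexp (0.17) and the mean of probes (0.13), and the gained calls those of the dimmer Cep63 probe. The cause was not tested. The labels do not say what a replicate number shares. Deviations from the tissue mean, not whole arrays, were correlated between same-numbered V/SVZ and CP arrays, at 0.34, 0.31, 0.098 and 0.20. One fell under the 0.1 required of every pair, so the numbers were not treated as pairing. Numbers 1, 2 and 4 correlated best with their own, a hint from the data and not from the design, and number 3 did not. With the replicate block 13 probes and 10 genes were called, the dimmer Cep63 probe among them (adjusted p = 0.0264). Dim signals limit Stil, Cit and the dimmer probes of Wdr62 and Cep63.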
